A study of Mus musculus with 10 samples.

Results

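The genes described here are 10 components of bone morphogenetic protein (BMP) signalling in the mouse lung: the ligands Bmp4, Bmp5 and Bmp6, the receptors Bmpr2, Bmpr1a and Acvrl1 with the co-receptor Eng, the secreted antagonist Grem1, and the target genes Id1 and Id3. They were chosen by name, with earlier results of these data known. Counts and medians of the members set beside all genes are therefore a description and not a test. All 10 were found on the array, and all 10 were among the 14989 genes of 18194 that were bright enough to be tested. ICR pups, pooled and randomised within 12 h of birth, breathed either 80% oxygen (hyperoxia, the group titled BPD for bronchopulmonary dysplasia) or room air (the group titled WT) for 14 or 29 days, with the nursing dams rotated between the exposures every day. Whole lungs were taken at postnatal day 14 (P14) or 29 (P29), and each age has 2 arrays of room air and 3 of hyperoxia. By design the controls differ from the treated pups in the air they breathed and not in genotype or strain. The control probe signals, and at P29 the sex pattern, also differed between the exposures, as given below. Whole-lung RNA mixes all lung cells, and fewer cells of a type cannot be told apart from less RNA per cell. The labels do not say that each array is a separate animal, so p-values cover only the spread among these samples, and that spread may be technical.

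BMPs are secreted ligands of the TGF-beta superfamily. A ligand brings type I receptors (such as Bmpr1a and Acvrl1) together with type II receptors (such as Bmpr2), the complex phosphorylates SMAD transcription factors, and these switch on genes such as Id1 and Id3. Acvrl1 and Eng act mainly in endothelium, where they respond to the circulating ligands Gdf2 and Bmp10. In humans, mutations of BMPR2 cause heritable pulmonary arterial hypertension, and mutations of ACVRL1 or ENG cause hereditary haemorrhagic telangiectasia.

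Over the tested genes, r was 0.993 to 0.996 within groups and 0.935 to 0.983 between them. The lung identity of the samples showed in the surfactant gene Sftpc, at 14.66 to 14.89 on the log2 scale on all 10 arrays, and in the alveolar gene Ager, at 14.03 to 14.45. The control probe sets for actin, read as the 3' minus the 5' signal, separated the exposures at both ages. This difference was 0.32 to 0.74 on the 4 room-air arrays and 1.33 to 2.21 on the 6 hyperoxia arrays. The same reading for Gapdh was -0.14 to 0.12 on the room-air arrays and 0.48 to 1.11 on the hyperoxia arrays. At both ages a difference between the exposures therefore cannot be told apart from a difference in these control signals. Sex-linked transcripts also differed. All 5 P14 arrays had low Xist (6.63 to 6.99) and Y-linked Eif2s3y at 8.35 or more, both P29 room-air arrays had high Xist (12.48 and 12.66) and Eif2s3y at 3.61 or less, and the P29 hyperoxia arrays comprised a male pattern (replicate 1), a female pattern (replicate 2) and an array with both transcripts high (replicate 3). The age comparison in room air therefore cannot be told apart from a difference in sex. The other comparisons that use P29 arrays, among them the difference of the hyperoxia effects, also set arrays of differing sex pattern against each other. At P29 Bmp5, Bmp6, Bmpr2, Bmpr1a, Acvrl1 and Eng are also given with hyperoxia replicate 2 alone. In that comparison the 1 array is assumed to vary like the other groups. The other pathway genes are not given in that way.

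The comparison of hyperoxia with room air at P14 asked what 14 days of oxygen had changed. Acvrl1 and Id3 fell, and Bmpr2 and Bmp5 rose, on the brightest probe set of each gene. Thus 4 of the 10 members were called (2 higher and 2 lower at an adjusted p under 0.05 from limma, adjusted over all 14989 genes), against 55.0% of all genes tested, 32.3% higher and 22.8% lower. The median log2 difference of the members was -0.05 against 0.04 over all genes. Setting each array to its own 75th percentile moved the median of all genes to -0.14, and then 1 member was higher and 4 were lower.

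At P29 the question was what 29 days had changed. Bmp6, Acvrl1, Eng and Bmpr2 fell, and Bmp5 and Bmpr1a rose. These 6 calls, 2 higher and 4 lower, stand beside 59.7% of all genes, 34.2% higher and 25.5% lower, and the median of the members was -0.06 against 0.04. With 75th percentile scaling, which moved the median of all genes to -0.13, 1 member was higher and 4 were lower. The share of all calls that were higher was 58.6% at P14 and 57.2% at P29, and 35.4% and 37.3% with that scaling.

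The difference between the hyperoxia effects at the 2 ages passed the test for 6 members, 2 with a higher and 4 with a lower effect at P29, against 22.5% of all genes (11.0% higher, 11.6% lower). The median of the absolute differences was 0.59 for the members and 0.22 for all genes.

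**Figure D1:**
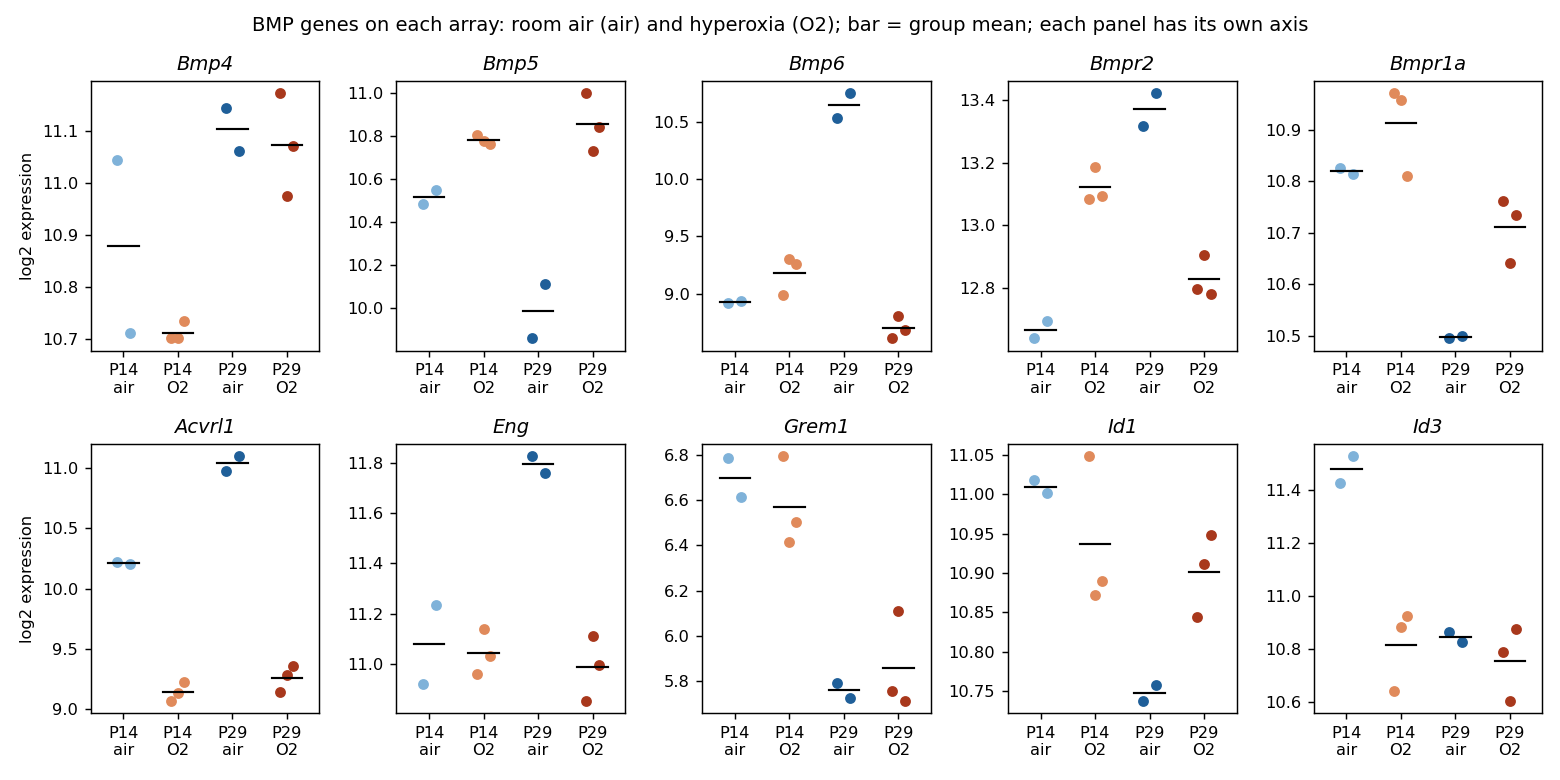
Log2 expression of the 10 BMP genes on each of the 10 arrays, by age and exposure, on the brightest probe set of each gene; points are arrays, bars are group means, and each panel has its own axis. On these probe sets Bmp6, Bmpr2, Acvrl1 and Eng have their highest values on both P29 room-air arrays, and Bmp5 has its lowest values there.

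Among the ligands, Bmp6, which belongs to the same subgroup as Bmp5, showed the widest range of levels. It was at 8.92 and 8.94 on the P14 room-air arrays and at 8.99, 9.30 and 9.26 on the P14 hyperoxia arrays. At P29 it was at 10.54 and 10.75 in room air and at 8.61, 8.81 and 8.69 in hyperoxia. No groups overlapped, and the order of the means was P29 hyperoxia, P14 room air, P14 hyperoxia and P29 room air, with steps of 0.23, 0.25 and 1.46. At P29, Bmp6 was 3.84-fold lower in hyperoxia (log2 difference -1.94 ± 0.11, SE; limma adjusted p = 3.32e-07), and at P14 it differed by 0.25 ± 0.11 (adjusted p = 0.0714). The effects differed by -2.19 ± 0.16 (adjusted p = 1.16e-05). With the female-pattern hyperoxia array alone the P29 difference was -1.84, and with the actin 3' minus 5' values added to the model it was -2.26. Bmp6 has a single probe set here, so its values could not be checked on another.

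Bmp5 was at 10.49 and 10.55 in P14 room air and at 10.81, 10.78 and 10.76 in P14 hyperoxia. It was at 9.86 and 10.12 in P29 room air and at 11.00, 10.73 and 10.84 in P29 hyperoxia. The P29 room-air arrays were the lowest of all, and the 2 hyperoxia groups overlapped. Bmp5 was 1.83-fold higher in hyperoxia at P29 (0.87 ± 0.10, SE, limma adjusted p = 3.21e-05). The effects at the 2 ages differed by 0.61 ± 0.14 (adjusted p = 0.0103). With the female-pattern hyperoxia array alone the P29 difference was 0.74 (adjusted p = 0.00161). Its 2 other probe sets gave 0.45 and 0.28 at P29, of which the first passed the test, and 0.66 and 0.91 for the difference of effects, of which both passed. The P14 rise of 0.26 ± 0.10 (adjusted p = 0.0424) was not shared by them, as they gave -0.21 and -0.63, the latter a called fall, and the mean of the 3 probe sets was -0.19. That P14 call ended without each of 6 arrays in turn, which are the 5 arrays of P14 and P29 hyperoxia replicate 3 (adjusted p from 0.0558 to 0.175).

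Bmp4, a ligand of early lung branching that distal epithelium and mesenchyme make, differed little between the exposures. It was at 11.05 and 10.71 in P14 room air and at 10.70, 10.70 and 10.74 in P14 hyperoxia, and at 11.14 and 11.06 in P29 room air against 11.17, 10.98 and 11.07 in P29 hyperoxia. The exposures overlapped at both ages. The log2 difference was -0.17 (95% interval -0.39 to 0.06; adjusted p = 0.187) at P14 and -0.03 (-0.26 to 0.19; adjusted p = 0.808) at P29. The P14 value rested on the room-air pair, which spanned 0.33. Without P14 room air replicate 1 the difference was 0 (adjusted p = 1), and without replicate 2 it was -0.33 (adjusted p = 0.02). With 75th percentile scaling it was -0.34 (adjusted p = 0.0274).

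Among the receptors, Acvrl1, the endothelial type I receptor, changed at both ages. It was at 10.22 and 10.21 in P14 room air and at 9.07, 9.13 and 9.22 in P14 hyperoxia. At P29 it was at 10.98 and 11.10 in room air and at 9.15, 9.28 and 9.36 in hyperoxia. All 6 hyperoxia arrays were below all 4 room-air arrays, and the 2 hyperoxia groups overlapped each other. Acvrl1 was 2.11-fold lower at P14 (-1.07 ± 0.09, SE; adjusted p = 6.65e-06) and 3.43-fold lower at P29 (-1.78 ± 0.09; adjusted p = 1.66e-07), and these effects differed by -0.71 ± 0.12 (adjusted p = 0.00226). A second probe set of Acvrl1 did not show the fall. It was at 9.12 and 9.31 in P14 room air, 9.45 to 9.63 in P14 hyperoxia, 9.60 and 9.47 in P29 room air and 9.50 to 9.62 in P29 hyperoxia. Its log2 difference was 0.33 ± 0.10 at P14, a call in the other direction, and 0.01 ± 0.10 at P29 (adjusted p = 0.923). Its difference of effects was -0.32 ± 0.13 and did not pass (adjusted p = 0.146). The mean of the probe sets fell by 0.37 at P14 and by 0.88 at P29, and both passed the test.

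Eng, the co-receptor endoglin, was at 10.92 and 11.23 in P14 room air and at 10.96, 11.14 and 11.03 in P14 hyperoxia. At P29 it was at 11.83 and 11.76 in room air and at 10.85, 11.11 and 11.00 in hyperoxia. The P29 room-air pair stood above the other 3 groups, which overlapped one another. Eng was 1.75-fold lower at P29 (-0.81 ± 0.11, SE; adjusted p = 1.04e-04) and differed by -0.03 ± 0.11 at P14 (adjusted p = 0.808). The effects differed by -0.78 ± 0.16 (adjusted p = 0.00482). The second probe set of Eng gave 0.93 ± 0.12 at P14, a called rise, and 0.08 ± 0.12 at P29 (adjusted p = 0.593). It thus placed the exposures otherwise at each age, while its difference of effects, -0.85 ± 0.17 (adjusted p = 0.00746), passed the test in the same direction.

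Bmpr2, the type II receptor of BMP ligands, was at 12.64 and 12.70 in P14 room air and at 13.09, 13.19 and 13.09 in P14 hyperoxia. It was at 13.32 and 13.42 in P29 room air and at 12.80, 12.91 and 12.78 in P29 hyperoxia. No groups overlapped. Hyperoxia was 1.37-fold higher at P14 (0.45 ± 0.08, SE; adjusted p = 6.79e-04) and 1.45-fold lower at P29 (-0.54 ± 0.08; adjusted p = 1.70e-04), so that the effects differed by -0.99 ± 0.11 (adjusted p = 1.52e-04). Of its 2 other probe sets, the brighter gave 0.39 at P14 and -0.26 at P29, neither past the test, and the dimmer gave -0.04 at P14 and a called -1.16 at P29. Their differences of effects were -0.65 (adjusted p = 0.203) and -1.12 (adjusted p = 8.94e-04). With the actin term the P14 value was 0.43 ± 0.18 and no longer passed (adjusted p = 0.146). The value thus changed little and its SE grew.

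Bmpr1a, a widely expressed type I receptor, was at 10.83 and 10.82 in P14 room air and at 10.97, 10.96 and 10.81 in P14 hyperoxia, and at 10.50 on both P29 room-air arrays against 10.76, 10.64 and 10.74 in P29 hyperoxia. The exposures overlapped at P14 and not at P29. The rise at P29 was small (0.22 ± 0.08, SE; adjusted p = 0.0367) and the call ended without either P29 room-air array, P29 hyperoxia replicate 1 or 3, or P14 hyperoxia replicate 2, each in turn (adjusted p from 0.0506 to 0.122) with either quantile or 75th percentile scaling (0.13 and 0.05), and with the female-pattern hyperoxia array alone (0.14; adjusted p = 0.328). Of 4 other probe sets above the filter, 2 rose at P29 (0.35 and 0.51) and at P14 (0.33 and 0.47), and 2 were called at neither age. A further probe set lay below the filter, at 4.29 to 4.78.

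**Figure D2:**
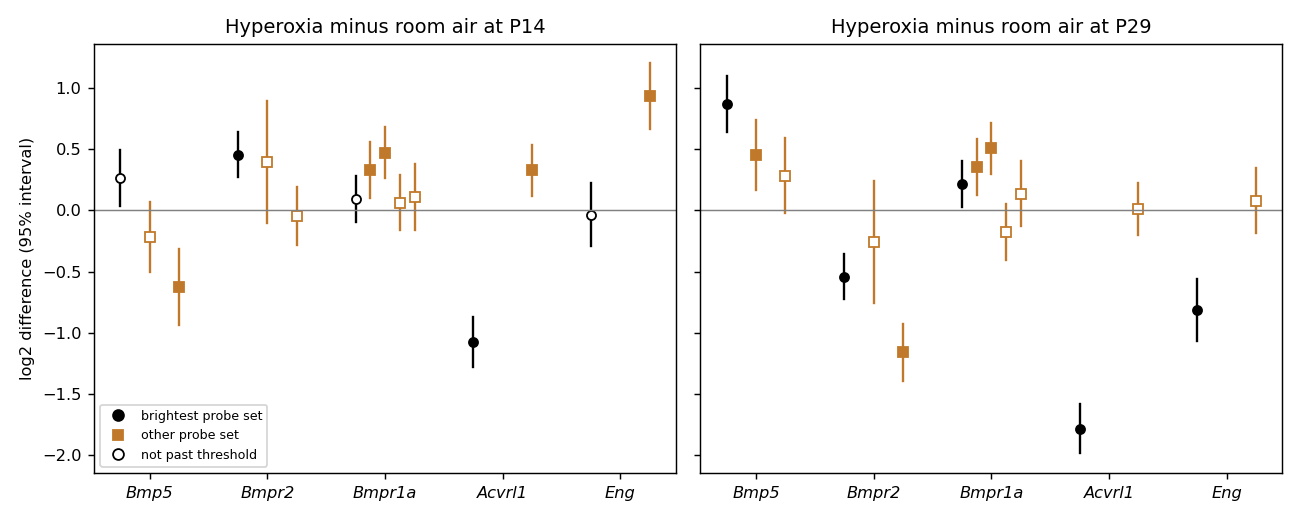
Log2 difference between hyperoxia and room air at P14 and at P29 for every probe set above the filter of the 5 genes with several, with 95% intervals of a fit over all probe sets of 1 gene and p-values adjusted over those probe sets, under which the P14 rise of Bmp5 is open. At P29 the brightest probe sets of Acvrl1 and Eng lie at -1.78 and -0.81 and their second probe sets at 0.01 and 0.08.

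Several endothelial markers were lower in hyperoxia at P29, and at P14 they went both ways. Of 10 such markers, 6 were lower and 0 higher at P29, and 4 were lower and 3 higher at P14. Over all genes, 25.5% were lower and 34.2% higher at P29, and 22.8% and 32.3% at P14. The mean of the 10 markers was 11.39 to 11.50 in P29 room air and 10.82 to 10.91 in P29 hyperoxia, and 11.19 to 11.27 against 11.12 to 11.23 at P14. Pecam1, an endothelial adhesion molecule, fell by 1.32 at P29 and Ramp2, a receptor partner protein of endothelium, by 1.65, whereas Cdh5, the endothelial cadherin, was at -0.07 ± 0.13 (SE) and the VEGF receptor Kdr at -0.07 ± 0.08, neither past the test. Leukocyte markers also moved, with 9 of 10 lower at each age and a mean of 9.40 to 9.44 in P29 room air against 7.76 to 7.90 in P29 hyperoxia. Other marker lists moved too. Proliferation markers were higher for 2 of 4 at P14 and 4 of 4 at P29. Mesothelial markers were higher for 4 of 4 at P14, and 1 was higher and 1 lower at P29. Of 10 fibroblast and smooth muscle markers, 2 were higher and 4 lower at P29. The part of any cell type in the falls of Bmp6, Bmpr2, Acvrl1 and Eng, or in the other changes given here, was not tested.

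The antagonist Grem1, which binds BMP ligands and keeps them from their receptors, changed with age and not detectably with oxygen. It was at 6.79 and 6.61 in P14 room air and at 6.80, 6.41 and 6.50 in P14 hyperoxia, and at 5.79 and 5.73 in P29 room air against 5.76, 6.11 and 5.71 in P29 hyperoxia. The exposures overlapped at both ages, and both P29 groups lay below both P14 groups. Its log2 difference was -0.13 (95% interval -0.43 to 0.18; adjusted p = 0.444) at P14 and 0.10 (-0.20 to 0.40; adjusted p = 0.551) at P29.

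Of the target genes, which encode helix-loop-helix proteins that block other transcription factors of that class, Id3 fell at P14 and Id1 passed the test at neither age. Id3 was at 11.43 and 11.53 in P14 room air and at 10.64, 10.88 and 10.93 in P14 hyperoxia, and at 10.86 and 10.83 in P29 room air against 10.79, 10.61 and 10.88 in P29 hyperoxia. Only the P14 room-air pair stood apart, above the other 3 overlapping groups. Id3 was 1.58-fold lower at P14 (-0.66 ± 0.11, SE; adjusted p = 4.27e-04) and differed by -0.09 ± 0.11 at P29 (adjusted p = 0.479). The effects differed by 0.57 ± 0.15 (adjusted p = 0.0197), a call that ended without P14 room air replicate 2 (0.52; adjusted p = 0.0719) and without P29 room air replicate 2 (0.55; adjusted p = 0.0608).

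Id1 was at 11.02 and 11.00 in P14 room air and at 11.05, 10.87 and 10.89 in P14 hyperoxia, and at 10.74 and 10.76 in P29 room air against 10.84, 10.91 and 10.95 in P29 hyperoxia. The whole range over the 10 arrays was from 10.74 to 11.05. The exposures overlapped at P14 and not at P29. Its log2 difference was -0.07 (95% interval -0.25 to 0.10; adjusted p = 0.451) at P14 and 0.15 (-0.02 to 0.33; adjusted p = 0.118) at P29. With 75th percentile scaling Id1 was called lower at P14 (-0.25; adjusted p = 0.0253).

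The comparison of the ages asked how these genes change between P14 and P29 under each exposure. In room air 4 members rose (Bmp6, Acvrl1, Eng and Bmpr2) and 5 fell (Grem1, Id3, Bmp5, Bmpr1a and Id1), against 41.3% of all genes called, 22.2% higher and 19.1% lower. The median absolute difference was 0.67 for the members and 0.24 for all genes. In hyperoxia 1 rose (Bmp4) and 3 fell (Grem1, Bmp6 and Bmpr2), against 27.1% of all genes, 15.4% higher and 11.7% lower. The test of whether the age changes differ is the same contrast as the difference of the hyperoxia effects above, and it passed for Bmp6, Bmpr2, Acvrl1, Eng, Bmp5 and Id3.

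Bmp6 rose 3.28-fold in room air (1.71 ± 0.12, SE; adjusted p = 1.11e-06) and fell by 0.48 ± 0.10 in hyperoxia (adjusted p = 0.00438). Bmpr2 rose by 0.70 ± 0.09 in room air (adjusted p = 6.56e-05) and fell by 0.29 ± 0.07 in hyperoxia (adjusted p = 0.0104). Acvrl1 rose by 0.83 ± 0.10 in room air (adjusted p = 4.26e-05), and Eng by 0.72 ± 0.12 (adjusted p = 6.11e-04). In hyperoxia their differences were 0.12 (95% interval -0.05 to 0.29) and -0.06 (-0.28 to 0.16). The room-air rises were seen on the other probe sets too. The second probe sets of Acvrl1 and Eng gave called rises of 0.32 and 0.63, and the 2 others of Bmpr2 gave 0.63 (adjusted p = 0.0712) and a called 0.59. The room-air arrays at P14 were male and at P29 female in pattern. Within P29 hyperoxia, the male-pattern replicate 1 and the female-pattern replicate 2 were at 8.61 and 8.81 for Bmp6, 12.80 and 12.91 for Bmpr2, 9.15 and 9.28 for Acvrl1 and 10.85 and 11.11 for Eng, all below both P29 room-air arrays. With replicate 2 alone, the P29 differences between the exposures were -0.46 for Bmpr2, -1.76 for Acvrl1 and -0.69 for Eng; their adjusted p-values (0.00886, 1.66e-05 and 0.00452) take the spread of the hyperoxia arm from the other groups.

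Bmp5 fell by 0.53 ± 0.11 (SE) in room air (adjusted p = 0.00234), and its 2 other probe sets fell by 0.47 and 0.52. In hyperoxia its difference was 0.08 ± 0.09 (adjusted p = 0.581). Grem1 fell 1.92-fold in room air (-0.94 ± 0.15; adjusted p = 4.39e-04) and 1.64-fold in hyperoxia (-0.71 ± 0.12; adjusted p = 0.00159), and these changes differed by 0.23 (95% interval -0.20 to 0.66; adjusted p = 0.451). Id3 fell by 0.63 ± 0.12 in room air (adjusted p = 0.00117) and differed by -0.06 ± 0.10 in hyperoxia. Id1 fell by 0.26 ± 0.09 in room air (adjusted p = 0.0322), a call that ended without each of the 4 room-air arrays in turn (adjusted p from 0.0774 to 0.112). Bmpr1a fell by 0.32 ± 0.09 (adjusted p = 0.0115) on its brightest probe set, while the mean over its probe sets was -0.08 and did not pass. Bmp4 rose by 0.36 ± 0.09 in hyperoxia (adjusted p = 0.0134), a call that ended without P29 hyperoxia replicate 1 (adjusted p = 0.0532). In room air it was at 0.22 ± 0.11 (adjusted p = 0.135), at 0.39 without P14 room air replicate 1 (adjusted p = 0.0161) and at 0.06 without P14 room air replicate 2 (adjusted p = 0.718).

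**Figure D3:**
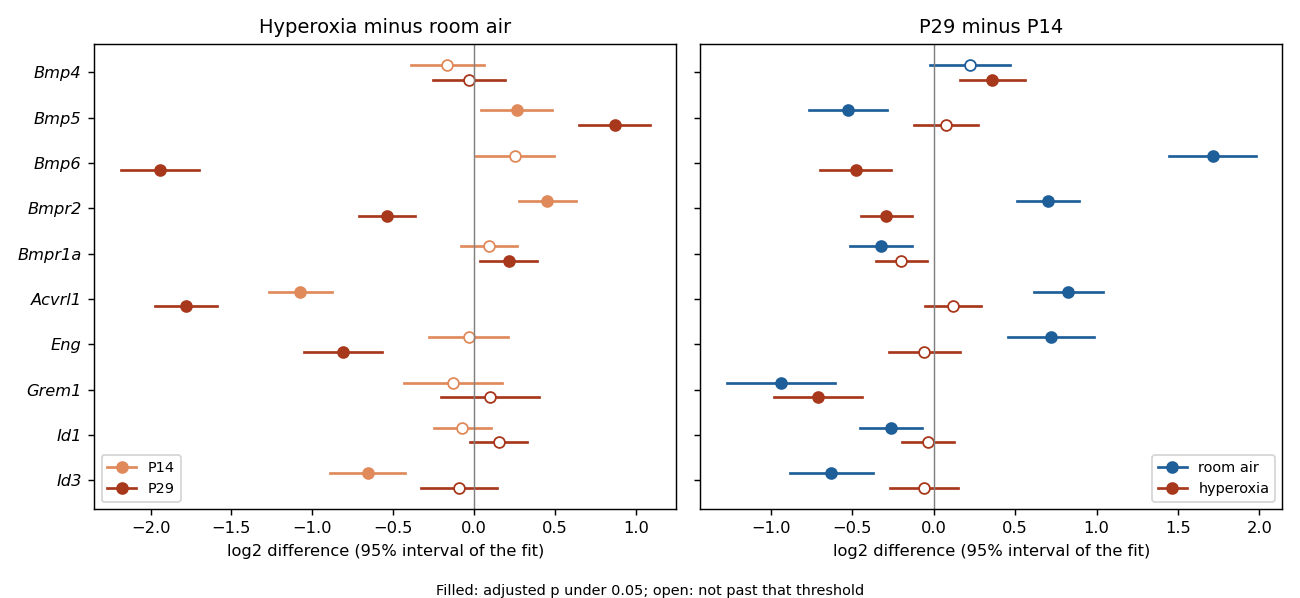
Log2 differences of the 10 genes with 95% intervals, between the exposures at each age (left) and between the ages under each exposure (right); filled points passed an adjusted p of 0.05. Bmp6, Bmpr2, Acvrl1 and Eng lie at 0.70 to 1.71 for age in room air and at -0.48 to 0.12 for age in hyperoxia.

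Bmp6, Bmpr2 and Eng rose together in room air and have a start site in the RefSeq promoter table (GRCm38.p6), which held 8 of the 10 members; the 250 bases before each start are shown because these are the genes that moved as a group. Capitals mark the SMAD-related motifs searched on both strands after the expression values were known, GGCGCC and CAGAC.
Bmp6, chr13:38345466-38345715, plus strand: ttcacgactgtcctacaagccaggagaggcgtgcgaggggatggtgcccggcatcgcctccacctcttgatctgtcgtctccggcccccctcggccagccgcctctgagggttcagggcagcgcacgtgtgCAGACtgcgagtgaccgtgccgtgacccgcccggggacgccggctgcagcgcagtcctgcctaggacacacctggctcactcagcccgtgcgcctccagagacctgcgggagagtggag
Bmpr2, chr1:59764029-59764278, plus strand: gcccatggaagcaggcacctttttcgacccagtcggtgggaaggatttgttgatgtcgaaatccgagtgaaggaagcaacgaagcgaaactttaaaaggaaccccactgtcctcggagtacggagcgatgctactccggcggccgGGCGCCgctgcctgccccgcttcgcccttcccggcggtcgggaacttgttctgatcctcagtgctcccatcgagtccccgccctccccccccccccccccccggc
Eng, chr2:32646345-32646594, plus strand: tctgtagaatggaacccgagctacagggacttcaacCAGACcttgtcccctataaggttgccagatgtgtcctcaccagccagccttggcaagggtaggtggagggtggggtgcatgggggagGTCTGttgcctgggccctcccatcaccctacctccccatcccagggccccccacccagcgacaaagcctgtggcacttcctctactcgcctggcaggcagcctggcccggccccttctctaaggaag
Bmpr2 held 1 match of GGCGCC, which was present in 9.59% of the 32851 promoters of that length, and Bmp6 and Eng held 1 and 2 matches of CAGAC, present in 42.2%. No motif was common to all 3 windows, and matches of the 2 motifs did not overlap. Members that fell in room air also held matches in their windows. Id3 held 2 and Bmp5 held 1 of CAGAC, Grem1 held 1 of each motif, and Bmpr1a held 1 of GGCGCC. A match of letters is a description and not a binding site.

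The pattern over the 10 arrays was also set against every other tested gene, as the root mean square difference after each gene was centred on its own mean. The nearest genes to Acvrl1 were Cyp4f18 (0.14) and the B cell receptor Cd22 (0.14), against a spread of 0.75 of Acvrl1 itself. The nearest to Bmp6 were Hs3st1 (0.20) and the calcium pump Atp2a3 (0.21), against 0.71. The nearest to Bmpr2 were Syne2 and Ece1, the endothelin-converting enzyme (both 0.06, against 0.26), and the nearest to Eng were Ifitm10 (0.08) and Itpkb (0.09), against 0.32. For Bmp5 they were Adam10 and D430019H16Rik (both 0.07, against 0.34), for Grem1 Cdk7 and Tcim (0.14 and 0.15, against 0.43), and for Id3 Tor2a and Nme4 (both 0.08, against 0.29). The nearest genes of Bmp4 (Ctsc and Zdhhc24), Bmpr1a (Pbrm1 and Eif4g2) and Id1 (Cops6 and Pus10) lay within 0.03 to 0.08, but these members had spreads of only 0.19, 0.16 and 0.10.

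The rest of the pathway was read from 5 lists of 63 genes, of which 54 were tested, 5 had no probe set of their own symbol and 4 were too dim. These lists too were chosen with earlier results of these data known. At P14, 17 were higher and 11 lower (51.9% called, against 55.0% of all genes), with a median of 0.05 against 0.04. At P29, 18 were higher and 20 lower (70.4%, against 59.7%), with a median of -0.14 against 0.04. With 75th percentile scaling these splits were 12 and 18 at P14, and 13 and 28 at P29. Under that scaling the 14989 genes also leaned lower, with 3212 higher and 5867 lower at P14, and 3533 and 5950 at P29. The P14 count was 15 without P14 room air replicate 1, where 5911 of the 14989 genes were called. With the actin term the counts were 3 at P14 and 14 at P29, beside 1387 and 2905 of all genes. As reported, 8249 and 8948 of all genes were called. For the difference of effects, 6 were higher and 16 lower (40.7%, against 22.5%).

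Among 8 other ligands, 2 were higher and 3 lower at each age. That is 62.5% called, against 55.0% of all genes at P14 and 59.7% at P29. Bmp2, a close relative of Bmp4, rose by 0.67 ± 0.16 (SE) at P14 and 0.42 ± 0.16 at P29, and it fell between the ages under both exposures (-1.53 in room air and -1.78 in hyperoxia). Without P14 room air replicate 1 its P14 value was 0.46 and did not pass. The P29 call ended without either P29 room-air array or P29 hyperoxia replicate 1 or 2 (0.36 to 0.47; adjusted p from 0.0848 to 0.172), with 75th percentile scaling (0.25) and with the actin term. Gdf10, a ligand of the superfamily related to Bmp3, rose by 1.60 ± 0.21 at P29, from 8.42 and 7.62 in room air to 9.44, 9.76 and 9.66 in hyperoxia. Gdf2, the ligand of Acvrl1 that the liver makes, was lower by 0.38 at P14 and 0.48 at P29 on a dim probe set (6.7 to 7.2 in the group means), and Bmp10 and Gdf5 were lower by 0.51 and 0.47 at P14. Without P14 room air replicate 1 the P14 values of Gdf2, Bmp10 and Gdf5 were -0.18, -0.48 and -0.41, and none passed. Bmp7 fell by 0.40 ± 0.09 at P29.

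Of 9 other receptors and co-receptors, 3 were higher and 2 lower at P14, and 4 were higher and 3 lower at P29. The shares called were 55.6% and 77.8%, against 55.0% and 59.7% of all genes. Bmpr1b, a further type I receptor, was at 5.60 and 5.71 in P14 room air and at 7.30, 7.44 and 7.43 in P14 hyperoxia, and at 6.52 and 6.48 against 7.13, 7.58 and 7.37 at P29. It was 1.74 ± 0.12 (SE) higher at P14 and 0.86 ± 0.12 higher at P29, and these effects differed by -0.88 ± 0.16. With the mean of all its probe sets the values were 0.70 at P14 and 0.36 at P29, both called, and the difference of -0.35 did not pass (adjusted p = 0.0751). Acvr1, a type I receptor, rose by 0.53 and 0.91 on its brightest probe set, but 2 dimmer probe sets gave -0.28 and -0.32 at P14 and -0.09 and -0.38 at P29. Acvr2a, a type II receptor, rose by 0.50 at P14 and 0.56 at P29. Tgfbr3, the co-receptor betaglycan, fell by 0.36 at P14 and by 0.89 at P29, and its second probe set fell by 1.41 and 1.68; the P14 call of the brighter probe set ended without P14 room air replicate 1 (-0.27) and without P14 hyperoxia replicate 1 or 3 (both -0.32). Neo1, the receptor neogenin, rose by 0.98 at P29, and its 4 other probe sets gave from -0.44 to 0.78.

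Of 15 other antagonists, 4 were higher and 4 lower at P14, and 5 were higher and 4 lower at P29. The shares called were 53.3% and 60%, against 55.0% and 59.7% of all genes. Fst, or follistatin, which binds activins and some BMPs, was 1.36 ± 0.16 (SE) higher at P14. Nog, or noggin, was 0.78 lower at P14, from 5.33 and 5.32 to 4.65, 4.42 and 4.58. Fstl1, a follistatin-like secreted protein that restrains BMP signalling in the developing mouse lung, fell between the ages in room air from 12.92 and 12.98 to 10.81 and 10.68. In P29 hyperoxia it was at 12.76, 12.84 and 12.84, which is 2.07 ± 0.08 above room air (adjusted p = 3.45e-08). Its second probe set gave 1.27 at P29, and -0.38 at P14 where the brightest gave 0.34. Chrdl1, a chordin-like antagonist, was at 7.23 and 8.12 in P29 room air and at 5.31 to 5.66 on the 8 other arrays, and its P29 fall of 2.03 ± 0.20 was shared by both other probe sets (-1.96 and -2.53). Bmper rose by 0.91, and Nbl1 fell by 0.91, at P29, and Crim1 rose by 0.83 at P14.

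Of 11 SMADs and their regulators, 5 were higher and 0 lower at P14, and 5 were higher and 4 lower at P29. The shares called were 45.5% and 81.8%, against 55.0% and 59.7% of all genes. Smad6, an inhibitory SMAD that BMP signalling induces, was at 11.08 and 10.88 in P29 room air and at 10.30, 10.43 and 10.26 in P29 hyperoxia, a fall of 0.65 ± 0.09 (SE), with effects that differed by -0.74 between the ages. Smad1, a BMP signal transducer, rose by 0.86 at P29, and Smurf2, a ubiquitin ligase of the pathway, fell by 0.45. Tob1 rose by 0.88 at P14 and 0.75 at P29. Smad7, an inhibitory SMAD, rose by 0.26 at P14 and fell by 0.39 at P29, and Smurf1 rose by 0.33 at P14. The P14 Smad7 and Smurf1 calls ended with either scaling and without P14 room air replicate 1 or P14 hyperoxia replicate 3, the Smad7 call also without P14 hyperoxia replicate 1 and the Smurf1 call without P14 room air replicate 2. A dimmer Smurf1 probe set gave -0.55. Lemd3, which holds SMADs at the nuclear envelope, rose by 0.80 and 0.89, but its 2 dimmer probe sets gave -0.26 to -0.43.

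Of 11 other target genes, 3 were higher and 2 lower at P14, and 2 were higher and 6 lower at P29. The shares called were 45.5% and 72.7%, against 55.0% and 59.7% of all genes. Tmem100, an endothelial gene that Acvrl1 signalling induces in mice, was at 12.34 and 12.19 in P29 room air and at 10.49, 10.99 and 10.90 in P29 hyperoxia, a fall of 1.47 ± 0.13 (SE; adjusted p = 5.22e-06), with -0.91 on its second probe set. Hamp, the hepcidin gene that Bmp6 induces in the liver, fell by 1.41 ± 0.27, and Gata3, a transcription factor, fell by 1.03 ± 0.14 at P29 and rose by 0.51 at P14, a call that ended without P14 room air replicate 1 (0.36; adjusted p = 0.118). Id4, a relative of Id1 and Id3, rose at both ages (0.84 and 0.66), and its 2 other probe sets rose too. Msx1 fell by 0.45 and Gata2 rose by 0.59 at P14. Between the ages in room air, Id2 fell by 0.75 ± 0.09, Smad6 rose by 0.67 and Gata3 rose by 1.19.

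**Figure D4:**
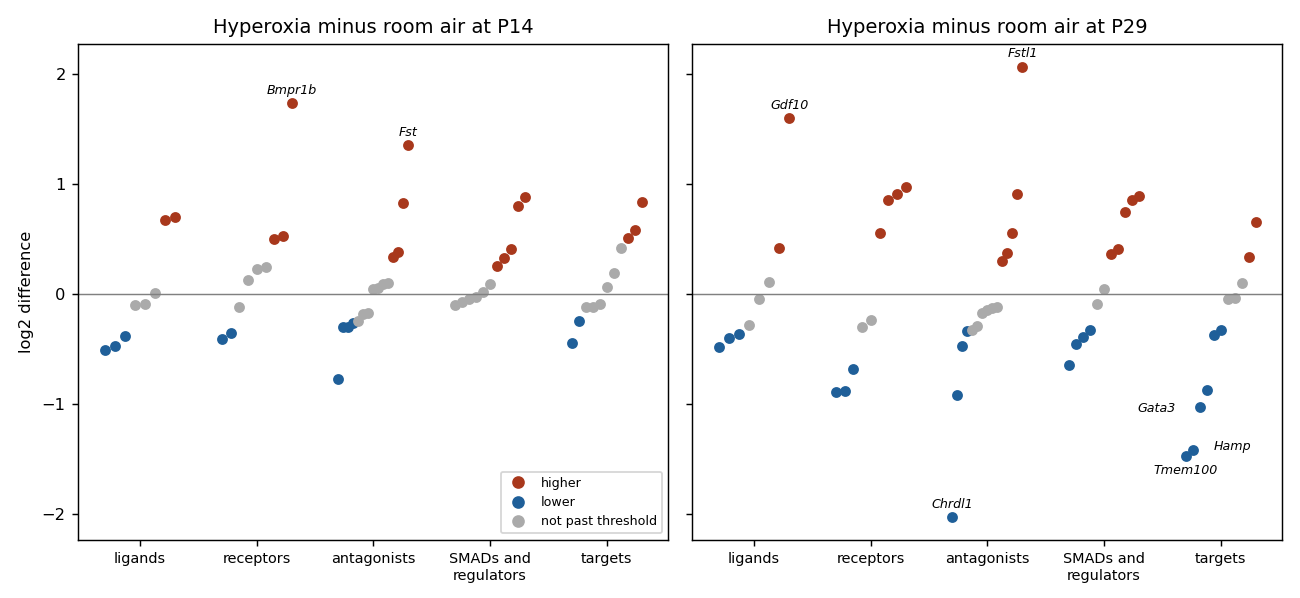
Log2 difference between hyperoxia and room air at P14 and P29 for the 54 other tested BMP pathway genes, 1 point a gene, by list and in rising order within it; red and blue points passed an adjusted p of 0.05. The genes named in the plot differed by more than 1, among them Fstl1 at 2.07 and Chrdl1 at -2.03 at P29.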

How the data were processed

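Total lung RNA of 10 ICR samples was labelled with biotin and hybridised to Affymetrix mouse arrays of 45101 probe sets. The values used were the log2 expression values that the authors deposited. Per the submitters' processing notes, GCRMA and Partek 6.4 were used; no settings are given there. Background-corrected values of dim probe sets carry more error. Groups and replicate numbers came from the titles. Of the probe sets, 34958 had exactly 1 gene symbol in the platform annotation, and each gene was represented by its brightest over the 10 arrays; 21 probe sets belonged to the members. The filter kept genes that reached 5 (log2) on 2 or more arrays.

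Group means of all 10 arrays were fitted with limma 3.58.1 in R 4.3.3 (6 residual and 5.09 prior degrees of freedom), two-sided, with Benjamini-Hochberg adjustment over all genes kept and a threshold of 0.05. Other probe sets were tested in the same fit over all probe sets of 1 symbol. SE is that of the fitted contrast. The steps were tested on simulated data. Alternatives were other filters, probe set rules, moderation, scalings, array weights, a replicate block, an actin 3' minus 5' term, each array left out, and a single hyperoxia array at P29. The members and lists were chosen with earlier results of these data known. All members, the pathway genes of smallest p among those called (up to 4 a list for hyperoxia and 2 otherwise) and the 2 nearest genes were named by rule; markers, and genes set beside them, were named with their values in view. Promoter sequences are RefSeq's.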

Additional observations from a re-analysis of the deposited data

Results flagged for a closer look

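The effect of hyperoxia differed between P14 and P29, by the interaction contrast of limma at an adjusted p under 0.05, for 6 of the 10 members. On the log2 scale, as the effect at P29 minus that at P14, Bmp6 differed by -2.19, Bmpr2 by -0.99, Eng by -0.78, Acvrl1 by -0.71, Bmp5 by 0.61 and Id3 by 0.57. These values are those of the brightest probe sets. The P14 arrays were male and the P29 room-air arrays female in pattern, so the differences of effects cannot be told apart from a difference in sex. The second probe set of Acvrl1 gave -0.32, which did not pass (adjusted p = 0.146). Among the other pathway genes named by rule, the difference was -2.07 for Chrdl1, 1.73 for Fstl1, -1.53 for Gata3, -1.35 for Tmem100, -0.88 for Bmpr1b, -0.74 for Smad6, 0.73 for Neo1, -0.65 for Smad7, 0.58 for Gdf5 and -0.40 for Bmp7. With the mean of all probe sets the Bmpr1b difference was -0.35 and did not pass (adjusted p = 0.0751). A second probe set of Smad7 gave -0.04 (not past the test). The Gdf5 and Bmp7 calls lay near the threshold (adjusted p = 0.0434 and 0.0449).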

How the results depend on the processing

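Over 50 member comparisons, 1050 alternative values were computed. Of these, 979 kept direction and side of the threshold, 37 lost a call, 12 gained one and 22 changed sign, of which 17 were uncalled before and after. The P14 count of members called, 4, became 2 with the actin 3' minus 5' term. The pathway count at P14, 28, became 3 with that term and lay between 15 and 27 with single arrays left out; the P29 count, 38, became 14 with it. All-gene counts with the term were 1387 at P14 and 2905 at P29, against 8249 and 8948. With single arrays left out the all-gene count at P14 was 5911 to 8310. The actin values separated the exposures on every array, so the term overlaps with exposure and its fit is less precise. For Bmpr2 at P14, for example, the SE was 0.18 with the term and 0.08 without it. The Bmpr2 value was 0.43 with the term and 0.45 without it, while the uncalled P14 value of Bmp6 was -0.09 with it and 0.25 without. What the fewer calls mean for the size of the differences was not tested. The causes were not tested.

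Reversed with the mean of all probe sets at P14 were Bmp5 (-0.19), Eng (0.45), Acvr1 (-0.024), Fstl1 (-0.021) and Smurf1 (-0.11). With the most variable probe set they were Bmpr2 (-0.042), Eng (0.93) and Smurf1 (-0.55) at P14 and Eng (0.079) at P29. With the actin term Bmp10 (0.056), Gata2 (-0.022) and Gata3 (-0.11) reversed at P14, as did the uncalled Bmp6 (-0.089), Grem1 (0.146) and Id1 (0.047), and Bmp4 (0.075) at P29. Uncalled values also changed sign with 75th percentile scaling for Bmpr1a at P14 (-0.083) and Grem1 (-0.069) and Id1 (-0.015) at P29, and with quantile normalization for Bmpr1a at P14 (-0.011). With single arrays left out, uncalled values crossed 0 for Eng at P14 (from -0.191 to 0.123), for Bmp4 (-0.081 to 0.018) and Grem1 (-0.026 to 0.174) at P29, for the Bmp4 difference of effects (-0.031 to 0.301), and for age in hyperoxia for Eng (-0.12 to 0.01), Id1 (-0.068 to 0.02) and Id3 (-0.149 to 0.014). With each alternative run, the P29 calls of Bmp5, Bmp6, Bmpr2 and Acvrl1 kept their direction and passed. So did the differences of effects of Bmp5, Bmp6, Bmpr2, Acvrl1 and Eng. No alternative read Acvrl1 from its second probe set alone, so these runs could not test the disagreement between its probe sets. That probe set gave 0.012 for P29 (limma adjusted p = 0.923) and an interaction of -0.315 (adjusted p = 0.146), neither past the threshold. Bmp6 has a single probe set, so the probe set rules could not change its log2 differences. The replicate block left 3 members called at P14 (the Bmp5 call ended, adjusted p = 0.0713) and 8 for age in room air (the Id1 call ended, adjusted p = 0.051), and changed no other member's call; it also ended the P14 calls of Smad7 and Smurf1 and the Bmp7 difference of effects (adjusted p = 0.0504, 0.0501 and 0.0717). The numbers pair no samples by the labels, and same-numbered arrays correlated at -0.09 to 0.20 in their deviations. Dim probe sets limit what can be read of Grem1, Nog, Bmp10 and Gdf5.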
